A study of Mus musculus with 12 samples.

Results

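The collagen family was followed in fibroblasts of the mouse embryo early in reprogramming. Its members were the genes whose symbol reads Col, a number, a and a number, and which had a probe set naming no other gene. Where a gene had several such probe sets, the brightest by its mean log2 value over the 12 arrays was used. This gave 44 collagen genes out of 22180 genes, and all 44 passed the filter on low values that left 17860 genes for testing. By class there were 11 fibrillar, 8 basement membrane, 9 FACIT (collagens that sit on fibrils), 6 beaded filament, 4 network and anchoring and 4 transmembrane collagens, and 2 remaining ones.

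There were 4 groups of 3 arrays: Chaf1a knockdown at day 6, Renilla control at day 6, Chaf1a knockdown at day 3 and Renilla control at day 3. CAF-1, whose largest subunit is made from Chaf1a, is a chaperone that places histones on newly copied DNA, and the series asked how its loss alters expression early in reprogramming. All groups came from fibroblasts of E13.5 embryos of a strain labelled with both C57Bl/6 and 129X1/SvJ, and all carried the genotype Col1a1::tetOP-OKSM with R26-M2rtTA. In this system doxycycline switches on the factors Oct4, Klf4, Sox2 and Myc from a cassette that the genotype places at the Col1a1 locus, while the transactivator is driven from the Rosa26 locus. Every group was thus doxycycline-treated, carried the altered Col1a1 allele and a retroviral hairpin, and grew in stem cell medium with serum and LIF; the hairpin in the controls was aimed at Renilla, a luciferase absent from mouse cells. No uninduced or uninfected fibroblasts are part of the comparisons. The labels do not say whether replicates were separate embryos or cultures, so p-values measure only the spread between these arrays. The RNA was bulk RNA, in which fewer cells of a type and less RNA per cell cannot be told apart.

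Collagens are triple-helical proteins of the extracellular matrix, made as procollagen chains that are hydroxylated, folded, secreted, trimmed and crosslinked. Fibrillar collagens such as types I, III and V form the fibres of connective tissue, type IV forms the sheet of basement membranes, and FACIT and type VI collagens decorate or link fibres. Fibroblasts are the main makers of fibrillar collagens, and collagen genes belong to the mesenchymal programme that cells leave when they reprogramme.

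Of the targeted gene, Chaf1a, log2 intensity was 7.04, 7.16 and 7.11 on knockdown arrays and 7.06, 7.30 and 7.31 on control arrays at day 6, and 7.35, 7.18 and 7.19 on knockdown arrays and 7.44, 7.72 and 7.42 on control arrays at day 3. In all 3 pairs of arrays with the same number the knockdown array was the lower, at day 6 and at day 3, and the groups were apart at day 3 only. The log2 fold changes, -0.12 at day 6 and -0.29 at day 3, did not pass limma's test (adjusted p = 0.999 and 0.726). Of 12 fibroblast markers, 11 passed the low-value filter and 1, Lum, did not. The filter kept 17860 of all 22180 genes. It also kept 10 of 10 epithelial, 10 of 11 chondrocyte, 8 of 9 endothelial, 6 of 7 macrophage and 4 of 6 osteoblast markers. Passing it thus cannot tell fibroblasts from other cells, and the fibroblast label was not tested. Vim, the filament protein of mesenchymal cells, lay between 13.26 and 13.38 on all 12 arrays. Within groups, arrays correlated with Pearson's r of 0.991 to 0.995 over all 41345 probe sets.

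RNA levels are given as log2 of the deposited intensity, and no gene's level is set against another's because probe sets differ in brightness. Sums over a marker list add linear intensities, so the brightest probe sets weigh most in them. A collagen is said to have changed where limma's two-sided p, adjusted by the Benjamini-Hochberg method over all 17860 genes, was below 0.05. In the heat map of the 44 genes, the largest departures from a gene's own mean were those of Col10a1 on the replicate 1 arrays of day 6, at 8.12 in knockdown cells and 8.25 in control cells.

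**Figure D1:**
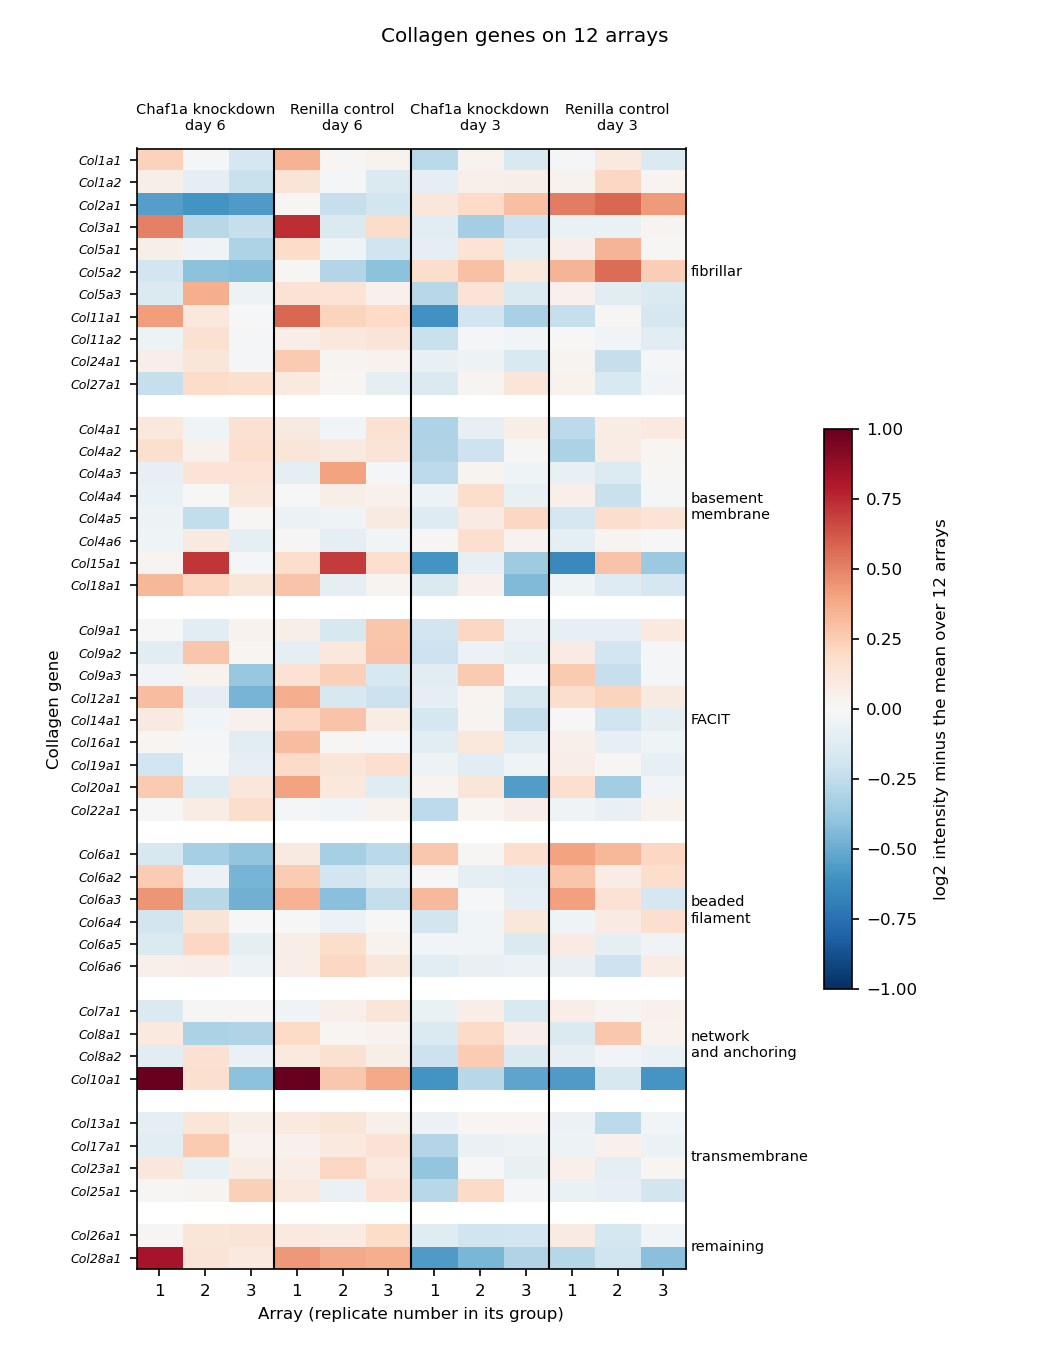
Log2 intensity of each of the 44 collagens (down the page, by class) on each of the 12 arrays, minus the gene's mean over the 12 arrays; colours end at -1 and 1, so Col10a1 at day 6 replicate 1 lies past the end of the scale. Col2a1 is below its mean on every day 6 knockdown array and above it on every day 3 array, and Col28a1 is above its mean on all day 6 arrays and below it on all day 3 arrays.

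The promoter windows of Col11a1, Col28a1 and Col6a1 are printed because these genes changed between day 3 and day 6 with both hairpins, and those of Col4a1 and Col4a2 because this gene pair starts head to head. Each window runs from 250 bases before to 50 bases after the RefSeq start in build GRCm38.p6, in the direction of the gene. Capitals mark matches on either strand to GGGCGG (the core of the Sp1 box), CCAAT or TATAAA. The windows are chr3:114030290-114030589 on the plus strand for Col11a1, chr6:8192568-8192867 on the minus strand for Col28a1, chr10:76725995-76726294 on the minus strand for Col6a1, chr8:11312777-11313076 on the minus strand for Col4a1 and chr8:11312555-11312854 on the plus strand for Col4a2.
Col11a1: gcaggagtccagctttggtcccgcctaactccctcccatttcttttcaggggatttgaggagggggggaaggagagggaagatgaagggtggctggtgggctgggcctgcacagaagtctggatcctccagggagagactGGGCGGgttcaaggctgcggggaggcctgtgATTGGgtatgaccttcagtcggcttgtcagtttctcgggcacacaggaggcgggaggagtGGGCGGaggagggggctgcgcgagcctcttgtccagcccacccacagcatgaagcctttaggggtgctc
Col28a1: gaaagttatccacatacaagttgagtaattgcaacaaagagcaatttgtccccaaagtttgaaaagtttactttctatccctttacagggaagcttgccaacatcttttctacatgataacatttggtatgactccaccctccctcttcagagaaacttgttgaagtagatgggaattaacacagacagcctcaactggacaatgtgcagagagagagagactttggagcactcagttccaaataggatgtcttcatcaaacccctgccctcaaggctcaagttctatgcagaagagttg
Col6a1: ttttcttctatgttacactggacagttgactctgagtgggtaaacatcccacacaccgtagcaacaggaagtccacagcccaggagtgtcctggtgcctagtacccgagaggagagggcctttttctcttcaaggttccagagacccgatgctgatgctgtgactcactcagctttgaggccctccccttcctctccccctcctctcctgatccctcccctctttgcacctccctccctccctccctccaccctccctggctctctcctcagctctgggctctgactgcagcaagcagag
Col4a1: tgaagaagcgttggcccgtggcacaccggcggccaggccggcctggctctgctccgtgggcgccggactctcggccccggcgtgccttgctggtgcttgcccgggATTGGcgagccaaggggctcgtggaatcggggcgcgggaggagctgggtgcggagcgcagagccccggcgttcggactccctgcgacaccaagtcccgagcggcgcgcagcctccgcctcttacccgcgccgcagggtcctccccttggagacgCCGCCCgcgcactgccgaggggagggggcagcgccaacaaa
Col4a2: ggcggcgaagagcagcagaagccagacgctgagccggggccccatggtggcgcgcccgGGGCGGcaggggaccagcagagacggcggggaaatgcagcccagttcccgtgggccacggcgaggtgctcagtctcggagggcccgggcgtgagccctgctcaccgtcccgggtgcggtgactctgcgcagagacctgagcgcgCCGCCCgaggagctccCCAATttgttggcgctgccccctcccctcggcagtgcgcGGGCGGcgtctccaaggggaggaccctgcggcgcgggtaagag

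The Col11a1 window held 2 matches to GGGCGG and 1 to CCAAT, and 9 CG pairs. The windows of Col28a1 and Col6a1 held none of the 3 motifs, with 0 and 3 CG pairs. Col4a1, which makes a chain of the basement membrane network, and Col4a2, which makes its partner chain, had 37 and 33 CG pairs, and their windows share 78 bases as reverse complements. The Col4a1 window held 1 match to GGGCGG and 1 to CCAAT, and the Col4a2 window 3 and 1, with the GGGCGG match of Col4a1 being the same bases as a match of Col4a2. No match in these windows overlapped another.

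Over the family, 35 of the 44 collagens were in the RefSeq promoter table, with 38 windows among 32851. GGGCGG was present in 60.5% of the collagen windows and 35.7% of all windows, CCAAT in 34.2% and 37.4%, and TATAAA in 13.2% and 13.6%. The median number of CG pairs was 11.5 in collagen windows and 7 in all windows. Col1a1, Col2a1 and Col5a2 were not in the table.

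Between day 3 and day 6, single collagens moved, some higher and some lower. In knockdown cells 4 of 44 collagens rose and 3 fell, and in control cells also 4 rose and 3 fell. Of all genes tested, 17.9% changed in knockdown cells (7.46% higher, 10.5% lower) and 17.6% in control cells (6.99% higher, 10.6% lower), so the share of collagens that changed was near that of genes at large. Col2a1, Col5a2 and Col6a1 fell and Col11a1 and Col28a1 rose with both hairpins, which makes 5 of 44 collagens, against 11.7% of all genes. A further 4 collagens passed the test with 1 hairpin only. The median log2 fold change of the 44 collagens was 0.08 in knockdown cells and 0.12 in control cells, and that of all genes 0.01 in both.

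**Figure D2:**
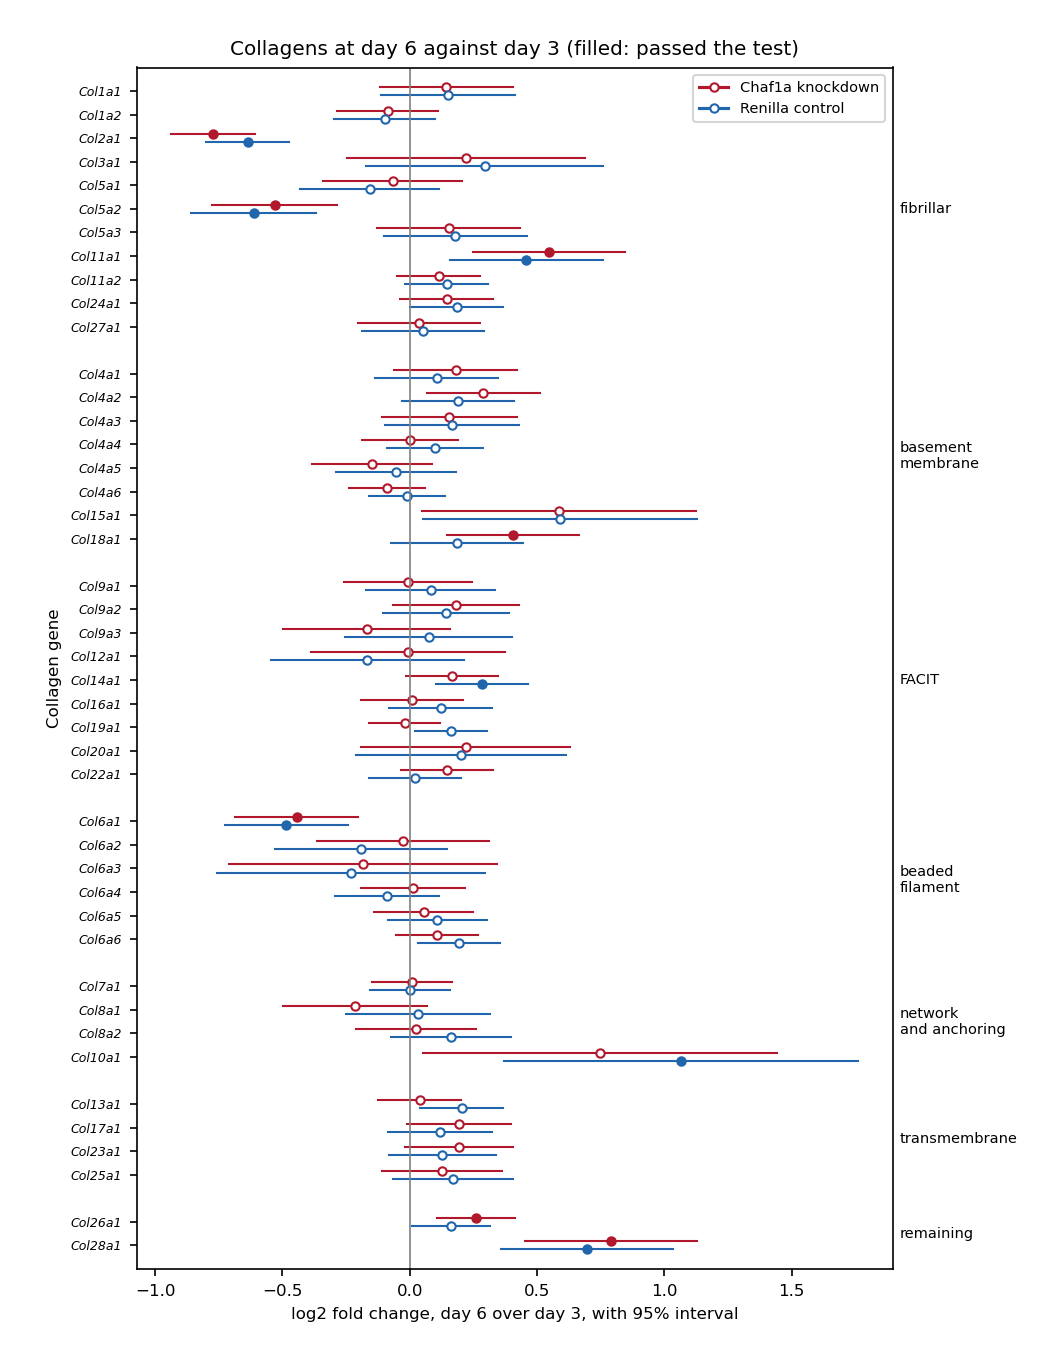
Log2 fold change of each collagen, day 6 over day 3, in Chaf1a knockdown cells (red) and Renilla control cells (blue), with 95% intervals from limma; filled points passed the test. Col2a1, Col5a2 and Col6a1 lie below 0 and Col11a1 and Col28a1 above 0 with both hairpins, and the widest intervals are those of Col10a1.

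Counted without a test, the days were apart (no array of one day within the range of the other) for 8 collagens higher and 3 lower at day 6 in knockdown cells, and for 13 higher and 3 lower in control cells. Over all genes, 34.3% were apart in knockdown cells (15.4% higher, 18.9% lower) and 35.3% in control cells (16% higher, 19.3% lower). The lower collagens that were apart were the same 3 with both hairpins: Col2a1, Col5a2 and Col6a1.

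Col2a1, which makes the type II chain of cartilage fibrils, had the smallest p of the family. Its log2 intensity was 7.36, 7.32 and 7.35 on knockdown arrays and 7.93, 7.69 and 7.73 on control arrays at day 6, against 8.03, 8.11 and 8.22 on knockdown arrays and 8.42, 8.49 and 8.34 on control arrays at day 3. No array of day 6 reached any of day 3, with either hairpin. Col2a1 fell by 0.77 (SE 0.08) on the log2 scale in knockdown cells and by 0.64 in control cells, with limma's adjusted p at 3.42e-05 and 1.80e-04.

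Markers of chondrocytes, the cells that make most Col2a1, are given beside it. Of 10 such genes that passed the filter, Sox6, Sox9 and Cytl1 rose in knockdown cells (log2 fold changes 0.58, 0.39 and 0.87) and Sox6 rose in control cells (0.64), and none fell. Of all genes tested, 7.46% rose in knockdown cells and 6.99% in control cells. Cytl1 had 0.58 in control cells, where it passed only with the replicate number as a block (limma's adjusted p = 0.0210 with it and 0.0572 without). Sox9 and Sox6 are transcription factors of cartilage, known to act on Col2a1. The intensities of the 11 markers with a probe set summed to 694 to 783 on knockdown arrays and 714 to 820 on control arrays at day 6, against 545 to 591 on knockdown arrays and 591 to 663 on control arrays at day 3. The brightest probe sets in this sum were those of Sox9, Sox6 and Cytl1, with means of 7.28, 6.99 and 6.80 over the 12 arrays. The mean log2 intensity of the 11 markers was 5.54 to 5.62 on knockdown and 5.53 to 5.69 on control arrays at day 6. The day 3 mean was 5.29 to 5.37 on knockdown and 5.39 to 5.54 on control arrays. Cnmd, which encodes the cartilage protein chondromodulin, was below the filter level on all arrays, and Acan, the main cartilage proteoglycan, lay between 4.84 and 5.30. The part of such cells in the Col2a1 values was not tested.

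Col5a2, whose chain joins type I collagen fibres and limits their width, also fell with both hairpins. It stood at 9.04, 8.83 and 8.81 on knockdown arrays and 9.24, 8.94 and 8.82 on control arrays at day 6, against 9.41, 9.52 and 9.34 on knockdown arrays and 9.57, 9.79 and 9.48 on control arrays at day 3. Replicate 1 was the highest of its group at day 6, and still below each day 3 array. The log2 fold change was -0.53 in knockdown cells and -0.61 in control cells (SE 0.11 for each; limma's adjusted p = 0.00661 and 0.00303). Its neighbour on chromosome 1, Col3a1, makes type III collagen of soft tissue and did not pass the test. Col3a1 stood at 9.41, 8.63 and 8.67 on knockdown arrays and 9.64, 8.76 and 9.09 on control arrays at day 6, against 8.79, 8.57 and 8.70 on knockdown arrays and 8.84, 8.84 and 8.93 on control arrays at day 3. Replicate 1 of day 6 was the highest Col3a1 array with each hairpin.

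The other member of the lower set was Col6a1, a chain of the type VI beaded filaments around cells. Its values were 10.50, 10.33 and 10.26 on knockdown arrays and 10.75, 10.33 and 10.39 on control arrays at day 6, against 10.93, 10.67 and 10.82 on knockdown arrays and 11.06, 10.99 and 10.86 on control arrays at day 3. The days did not overlap with either hairpin. The log2 fold change was -0.44 in knockdown cells and -0.48 in control cells (limma's adjusted p = 0.0158 and 0.0103). A second probe set of Col6a1 gave -0.48 in knockdown cells (adjusted p = 0.148 over all probe sets) and -0.72 in control cells (adjusted p = 0.0354). Without knockdown day 6 replicate 2, knockdown day 6 replicate 3 or knockdown day 3 replicate 1, the Col6a1 call in knockdown cells was lost (adjusted p = 0.0543, 0.0575 and 0.0629). Col6a2 and Col6a3, whose chains assemble with that of Col6a1, had log2 fold changes of -0.03 and -0.18 in knockdown cells and -0.19 and -0.23 in control cells, and did not pass. Col6a2 lies next to Col6a1 on chromosome 10.

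Among the genes that rose was Col11a1, a fibrillar collagen found in the core of thin fibrils. It stood at 9.37, 9.05 and 8.95 on knockdown arrays and 9.52, 9.17 and 9.15 on control arrays at day 6, against 8.34, 8.76 and 8.62 on knockdown arrays and 8.72, 8.96 and 8.79 on control arrays at day 3. Replicate 1 was highest in both day 6 groups and lowest in both day 3 groups. The log2 fold change was 0.55 in knockdown cells and 0.46 in control cells (SE 0.14 for each; limma's adjusted p = 0.0161 and 0.0377). The call in knockdown cells was lost without knockdown day 6 replicate 1 (adjusted p = 0.0613) or knockdown day 3 replicate 1 (0.0672). In control cells it was lost without control day 6 replicate 1 or 2 (adjusted p = 0.157 and 0.0548) and without control day 3 replicate 1 or 3 (0.106 and 0.0982).

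Col28a1, a short-helix collagen known from the sheaths of peripheral nerve, rose in both. Its values were 6.28, 5.58 and 5.55 on knockdown arrays and 5.89, 5.83 and 5.82 on control arrays at day 6, against 4.89, 5.0 and 5.16 on knockdown arrays and 5.16, 5.26 and 5.04 on control arrays at day 3. The lowest day 6 array was above the highest day 3 array, and the spread was widest in day 6 knockdown cells. The fitted log2 change was 0.79 in knockdown cells and 0.70 in control cells (SE 0.16 for each; limma's adjusted p = 0.00405 and 0.00880). Calls of Col28a1, Col2a1 and Col5a2 held with both hairpins without any single array.

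**Figure D3:**
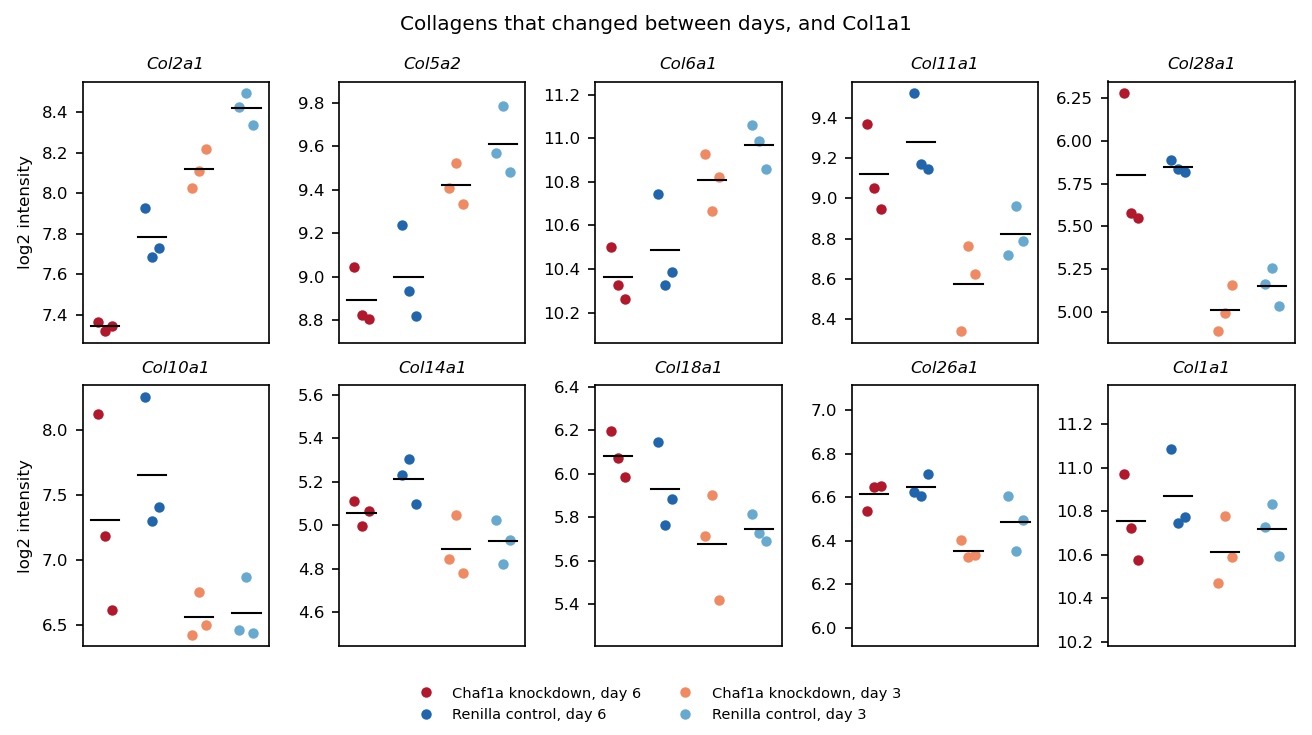
Log2 intensity on each array (points) and group mean (line) for the 9 collagens that changed between days with 1 or both hairpins, and for Col1a1; the vertical axes differ between panels. Points of day 6 lie apart from those of day 3 with the same hairpin for Col2a1, Col5a2, Col6a1, Col11a1 and Col28a1, and overlap them for Col1a1.

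Of the genes called with 1 hairpin, Col10a1, the collagen of hypertrophic cartilage, had the widest spread. It stood at 8.12, 7.18 and 6.62 on knockdown arrays and 8.25, 7.30 and 7.41 on control arrays at day 6, against 6.43, 6.75 and 6.50 on knockdown arrays and 6.46, 6.87 and 6.44 on control arrays at day 3. Both replicate 1 arrays of day 6 were higher than every other array. In control cells Col10a1 rose with a log2 fold change of 1.06 (SE 0.32, limma's adjusted p = 0.0377). In knockdown cells the value was 0.75 and did not pass (adjusted p = 0.135). The call in control cells was lost without control day 6 replicate 1 or 3 (adjusted p = 0.157 and 0.0537) and without control day 3 replicate 1, 2 or 3 (0.0936, 0.0569 and 0.107).

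Col14a1, a FACIT collagen that binds fibrils, had a log2 fold change of 0.17 in knockdown cells, which did not pass (limma's adjusted p = 0.204), and rose in control cells with 0.28 (adjusted p = 0.0338). Its levels of 5.0 to 5.11 on knockdown arrays and 5.10 to 5.31 on control arrays at day 6, and of 4.78 to 5.05 on knockdown arrays and 4.82 to 5.02 on control arrays at day 3, are close to the filter level of about 4.30 to 4.38. The Col14a1 call was lost without control day 6 replicate 1 or 2 (adjusted p = 0.0995 and 0.126), without control day 3 replicate 2 or 3 (0.128 and 0.0772), and with only the groups compared in the fit (0.0513).

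Among the basement membrane collagens the log2 fold change was above 0 for 6 of 8 with each hairpin, and 1 of them passed, in knockdown cells. That gene was Col18a1, whose C-terminal fragment is endostatin. It stood at 6.19, 6.07 and 5.98 on knockdown arrays and 6.14, 5.76 and 5.88 on control arrays at day 6, against 5.72, 5.90 and 5.42 on knockdown arrays and 5.81, 5.73 and 5.69 on control arrays at day 3. Days overlapped in control cells and were apart in knockdown cells. Its log2 fold change was 0.40 in knockdown cells (SE 0.12, limma's adjusted p = 0.0347) and 0.19 in control cells (adjusted p = 0.335). The Col18a1 call was lost without knockdown day 6 replicate 1 or 2 (adjusted p = 0.107 and 0.0804), without knockdown day 3 replicate 1 or 3 (0.0678 and 0.132), and with only the groups compared in the fit (0.0651).

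Col15a1, the relative of Col18a1 in basement membranes, moved with the replicate number. It stood at 7.16, 7.85 and 7.12 on knockdown arrays and 7.31, 7.83 and 7.30 on control arrays at day 6, against 6.54, 7.05 and 6.78 on knockdown arrays and 6.49, 7.42 and 6.76 on control arrays at day 3. Replicate 2 was the highest of all 4 groups. Without the replicate number in the fit the log2 fold change of 0.59 with each hairpin did not pass (limma's adjusted p = 0.129 in knockdown cells and 0.130 in control cells). With the replicate number as a block it did (0.00156 and 0.00165).

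The type IV pair with the shared promoter region moved less. Col4a1 stood at 9.93, 9.78 and 9.98 on knockdown arrays and 9.91, 9.80 and 9.98 on control arrays at day 6, against 9.52, 9.74 and 9.88 on knockdown arrays and 9.56, 9.90 and 9.92 on control arrays at day 3. Col4a2 stood at 9.79, 9.67 and 9.80 on knockdown arrays and 9.75, 9.72 and 9.76 on control arrays at day 6, against 9.33, 9.42 and 9.64 on knockdown arrays and 9.31, 9.70 and 9.65 on control arrays at day 3. Both were lowest on the replicate 1 arrays of day 3, and for Col4a2 the days did not overlap with either hairpin. The log2 fold change of Col4a2 was 0.29 in knockdown cells (limma's adjusted p = 0.0692, and 0.0491 with the replicate number as a block) and 0.19 in control cells (adjusted p = 0.238). That of Col4a1 was 0.18 in knockdown cells and 0.10 in control cells. The other type IV genes, Col4a3 to Col4a6, had values between -0.15 and 0.16 in knockdown cells and between -0.05 and 0.17 in control cells.

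Col26a1, a collagen described in testis and ovary, rose in knockdown cells with a log2 fold change of 0.26 (limma's adjusted p = 0.0237) and had 0.16 in control cells (adjusted p = 0.147). Its values were 6.54, 6.65 and 6.65 on knockdown arrays and 6.62, 6.61 and 6.71 on control arrays at day 6, against 6.40, 6.32 and 6.33 on knockdown arrays and 6.61, 6.35 and 6.50 on control arrays at day 3. Day 6 was above day 3 without overlap with each hairpin. The Col26a1 call was lost without knockdown day 6 replicate 2 or 3 (adjusted p = 0.0785 and 0.0722) and without knockdown day 3 replicate 2 or 3 (0.0684 and 0.0722).

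The chains of type I collagen, the main fibre of fibroblast matrix, showed no change that passed the test. Col1a1 stood at 10.97, 10.72 and 10.57 on knockdown arrays and 11.09, 10.75 and 10.77 on control arrays at day 6, against 10.47, 10.78 and 10.59 on knockdown arrays and 10.73, 10.83 and 10.60 on control arrays at day 3. The 4 groups overlapped. The log2 fold change of Col1a1 was 0.14 in knockdown cells and 0.15 in control cells (SE 0.12 for each; limma's adjusted p = 0.467 and 0.451). All groups carry the altered Col1a1 allele, and its part in the Col1a1 signal was not tested. Col1a2, the partner chain, had -0.09 in knockdown cells and -0.10 in control cells, and its second probe set -0.15 in knockdown cells and -0.18 in control cells, none of which passed. The probe sets of Col5a1, a chain that joins with Col5a2, differed in sign: -0.07 and 0.10 in knockdown cells, and -0.16 and 0.04 in control cells.

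Arrays of a group also differed over the family. The array that was the highest of its group for the most of the 44 genes was replicate 1 at day 6 in knockdown cells (19 genes, against 17 for replicate 2) and in control cells (23 genes). At day 3 it was replicate 2 in knockdown cells (27 genes) and replicate 1 in control cells (20 genes). Control day 6 replicate 1 had the highest mean log2 intensity over the family, 7.21, and knockdown day 3 replicate 1 the lowest, 6.88, with the other arrays between 6.95 and 7.10. Pdgfrb, a receptor kinase of fibroblasts and pericytes and the only fibroblast marker of 11 that rose with either hairpin, was 9.72 on knockdown and 9.96 on control replicate 1 at day 6, and 9.21 to 9.40 on the other day 6 arrays. The share of all genes that rose was 7.46% in knockdown cells and 6.99% in control cells. The summed intensity of the 12 fibroblast markers was 19996 to 21041 on knockdown arrays and 20491 to 21510 on control arrays at day 6, against 19767 to 20538 on knockdown arrays and 20001 to 20453 on control arrays at day 3. With the replicate number as a block, Prrx1, a mesenchymal transcription factor on the same list, was also called, lower at day 6 (log2 fold changes -0.25 in knockdown cells and -0.22 in control cells; limma's adjusted p = 0.0197 and 0.0366 with the block, 0.0788 and 0.127 without). The part of these differences between arrays in the collagen values was not tested.

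Markers of other cells moved between days as well. Of all genes tested, 7.46% were called higher and 10.5% lower in knockdown cells, and 6.99% and 10.6% in control cells. Of 10 epithelial markers, 6 rose in knockdown cells and 2 in control cells, and Krt19, a keratin of simple epithelia, fell with both hairpins. The summed intensity of the 10 markers was 1347 to 1471 on knockdown arrays and 1072 to 1094 on control arrays at day 6. At day 3 the sum was 1150 to 1302 on knockdown arrays and 1207 to 1338 on control arrays. In control cells the brightest probe set of this list was that of Krt19, at a mean log2 intensity of 8.43 at day 6 and 9.42 at day 3. The mean log2 intensity of the 10 markers was 6.43 to 6.53 on knockdown and 6.07 to 6.12 on control arrays at day 6. At day 3 this mean was 5.85 to 6.05 on knockdown and 5.96 to 5.98 on control arrays. Of 8 endothelial markers, Kdr and Cdh5 rose with both hairpins and Erg in control cells. In knockdown cells Erg had a log2 fold change of 0.42 and passed with the replicate number as a block (limma's adjusted p = 0.0184 with it and 0.0965 without). The endothelial sum, over the 9 markers with a probe set, was 1381 to 1420 on knockdown and 1272 to 1420 on control arrays at day 6. The day 3 sum was 1370 to 1456 on knockdown and 1314 to 1404 on control arrays. The brightest endothelial probe set was that of Tek, at a mean log2 intensity of 9.93 in knockdown and 9.89 in control cells at day 6. At day 3 Tek had 10.11 and 10.05. The mean log2 intensity of the 9 endothelial markers with a probe set was 5.88 to 5.99 on knockdown and 5.91 to 5.94 on control arrays at day 6. At day 3 this mean was 5.69 to 5.76 on knockdown and 5.63 to 5.76 on control arrays. Of 6 macrophage markers, Cd68 fell with both hairpins, and Lyz2 had a log2 fold change of -0.86 in control cells and passed only with the block (adjusted p = 0.0292 with it and 0.0769 without). The macrophage sum, over the 7 markers with a probe set, was 381 to 401 on knockdown and 350 to 389 on control arrays at day 6. The day 3 sum was 723 to 739 on knockdown and 645 to 683 on control arrays. The brightest macrophage probe set was that of Cd68, at a mean log2 intensity of 7.86 in knockdown and 7.70 in control cells at day 6. At day 3 Cd68 had 9.09 and 8.90. The mean log2 intensity of the 7 macrophage markers with a probe set was 5.06 to 5.16 on knockdown and 5.04 to 5.16 on control arrays at day 6. At day 3 this mean was 5.34 to 5.57 on knockdown and 5.32 to 5.53 on control arrays. Of 4 osteoblast markers kept by the filter none passed the test. The osteoblast sum, over the 6 markers with a probe set, was 325 to 346 on knockdown and 298 to 304 on control arrays at day 6. The day 3 sum was 292 to 373 on knockdown and 314 to 332 on control arrays. The part of such cells in the collagen values was not tested.

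Chaf1a knockdown was then set against the Renilla control on each day. No collagen passed the test at day 6 or at day 3. At day 6, 7 of 17860 genes passed, or 0.0392%, all of them higher, and at day 3 none did, or 0%. Of these 7 genes, 1 was among the 10 epithelial markers (limma's adjusted p = 0.0130). The log2 fold change of these 10 markers at day 6 was above 0 for 9 and below 0 for 1, with a median of 0.29. No fibroblast, chondrocyte, osteoblast, endothelial or macrophage marker passed on either day. The part of such cells in the collagen values was not tested. At an unadjusted p below 0.05, limma gave 2 collagens of 44 at day 6 and 1 at day 3, against 793 and 1074 of all genes. The median log2 fold change of the collagens was -0.07 on both days and that of all genes -0.01 on both. The 95% interval of a collagen's log2 fold change reached a median of 0.24 to either side. Changes smaller than that could not be told from 0 for a typical member, even without adjustment. The adjusted test over all genes asks for more: Col2a1, with -0.44 at day 6, did not pass it (limma's adjusted p = 0.148).

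**Figure D4:**
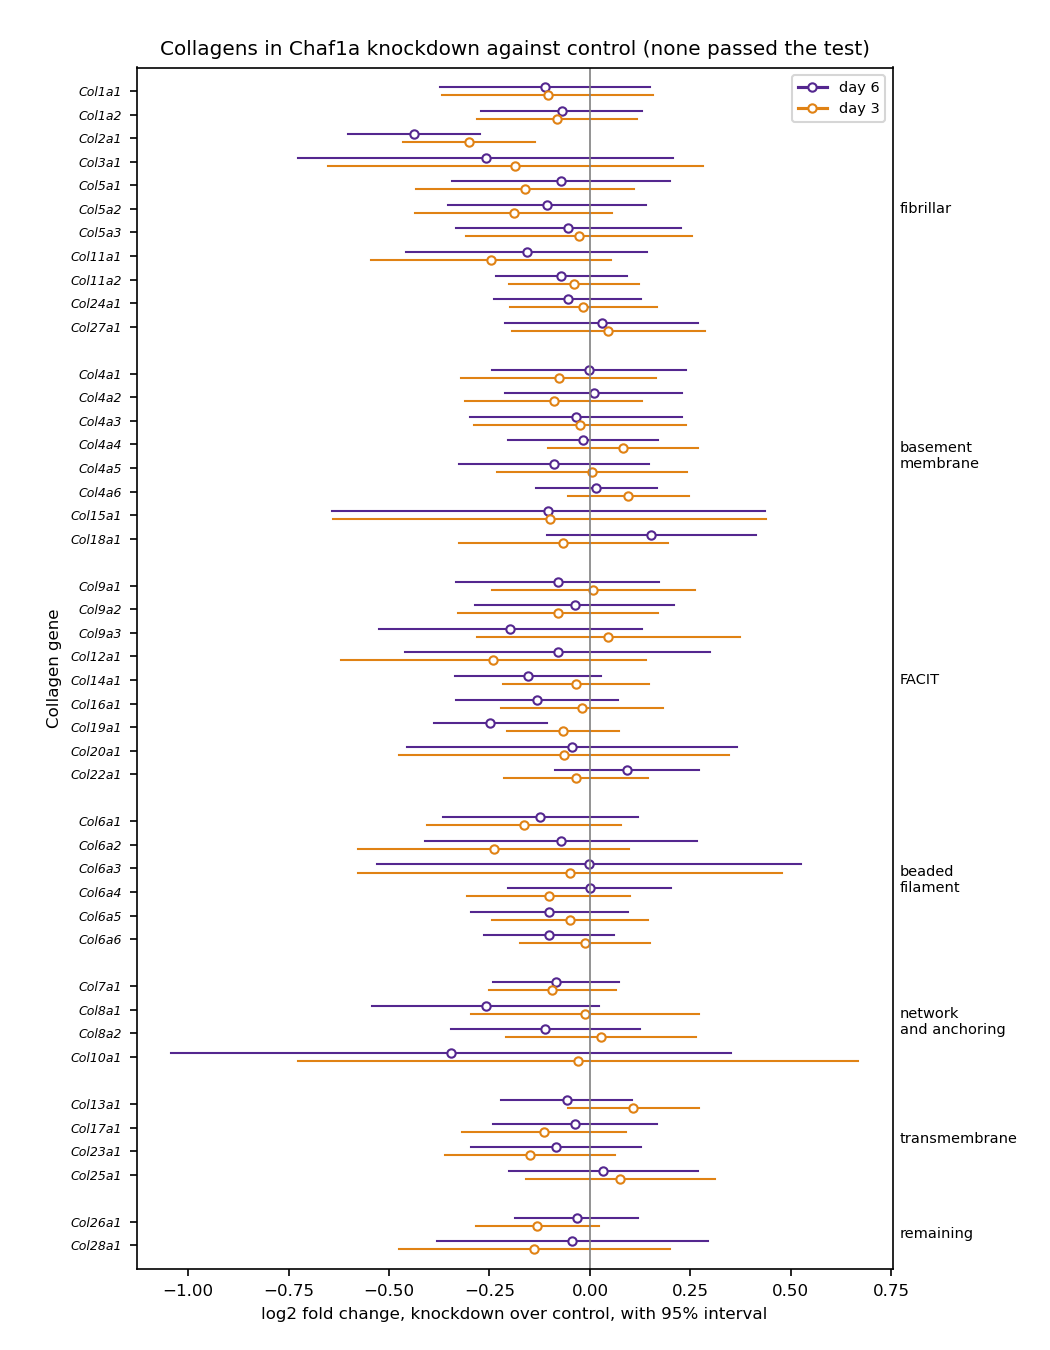
Log2 fold change of each collagen, Chaf1a knockdown over Renilla control, at day 6 (purple) and day 3 (orange), with 95% intervals from limma; open points did not pass the test. None passed; the interval of Col2a1 lies below 0 on both days and that of Col19a1 below 0 at day 6.

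Col2a1 had the smallest p of the collagens on both days. The arrays given above were lower in knockdown than in control cells without overlap at day 6 (7.32 to 7.36 in knockdown against 7.69 to 7.93 in control cells) and at day 3 (8.03 to 8.22 in knockdown against 8.34 to 8.49 in control cells), and the knockdown array was lower in 3 of 3 same-number pairs each day. The fitted log2 change was -0.44 at day 6 (95% interval -0.60 to -0.27) and -0.30 at day 3 (-0.47 to -0.14). Over all genes neither passed limma's test (adjusted p = 0.148 and 0.700), and with single arrays left out the adjusted p ranged from 0.190 to 0.592 for day 6 and from 0.589 to 0.904 for day 3. Col2a1 was the only collagen lower without overlap on both days, which 0.431% of all genes were.

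Other collagens whose groups were apart were few. At day 6, 2 collagens were lower without overlap and none higher, against 5.57% and 5% of all genes (10.6% either way). At day 3, 4 were lower and none higher, against 5.59% and 5.21% (10.8% either way). At day 6 the second was Col19a1, a rare FACIT collagen of basement membrane zones, at 4.60, 4.79 and 4.71 on knockdown arrays and 4.98, 4.91 and 4.96 on control arrays. Its log2 fold change was -0.25 (limma's adjusted p = 0.622), at a level near the filter. At day 3 the others were Col3a1, Col12a1 and Col6a2, with log2 fold changes of -0.19, -0.24 and -0.24. Col12a1, a FACIT collagen of tendon and other loaded tissue, stood at 8.34, 8.46 and 8.27 on knockdown arrays and 8.61, 8.66 and 8.53 on control arrays at day 3.

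The higher collagens with the smallest p did not pass either. At day 6 they were Col18a1, with a log2 fold change of 0.15, and Col22a1, a collagen of muscle-tendon junctions, with 0.09 (limma's adjusted p = 0.999 for each). At day 3 they were Col13a1, a transmembrane collagen of cell-matrix contacts, with 0.11, and Col4a6, with 0.10 (adjusted p = 0.895 and 0.901). Col26a1 had -0.13 at day 3 (adjusted p = 0.859). Col1a1 had -0.11 at day 6 and -0.11 at day 3 (adjusted p = 0.999 and 0.943).

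The sign of the differences was counted as a description, since the genes share arrays. At day 6, 38 of 44 collagens (86.4%) were on average lower in knockdown cells, against 53.8% of all genes, and so were 10 of 11 fibroblast markers. Without control day 6 replicate 1 these counts were 28 of 44 (63.6%, against 54.2% of all genes) and 2 of 11. Without replicate 1 of both hairpins at day 6 they were 32 of 44 (72.7%) and 8 of 11. At day 3, 35 of 44 collagens (79.5%) were lower, against 54.2% of all genes, and 25 of 44 (56.8%, against 54.9%) without knockdown day 3 replicate 1. Of the fibroblast markers, 6 of 11 (54.5%) were lower at day 3, and 5 of 11 without that array. The collagen count at day 3 thus depended on this array, which had the lowest mean log2 intensity over the family, 6.88. Control day 6 replicate 1 had the highest, 7.21. Leaving out such an array draws the compared groups together over the family, so smaller counts follow in part from the choice of array. No other single array was left out for these counts.

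The difference of the knockdown effect between days, which is also the difference of the time effect between hairpins, passed for none of the 44 collagens, nor for any gene (0%), and no collagen had an unadjusted p below 0.05 in limma's test. So the genes called over time with 1 hairpin were not shown to differ between hairpins. For Col2a1 the difference was -0.14 (95% interval -0.37 to 0.10), for Col10a1 -0.32 (-1.30 to 0.67) and for Col18a1 0.22 (-0.15 to 0.59). Col19a1, at -0.18 (-0.38 to 0.02), had the smallest p, with an adjusted p of 0.978.

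Genes that modify, fold, trim, link or bind collagen were read from the same fit, and those that passed between days did so in both directions. In knockdown cells, 1 of 14 modifying enzymes, none of 5 chaperones, 3 of 7 processing genes, 4 of 5 crosslinking genes and 3 of 9 receptors passed, and in control cells 2, 0, 4, 3 and 3 of the same lists, beside the shares of all genes given above. With the replicate number as a block, 3509 of 17860 genes passed in knockdown cells and 3367 in control cells. On these lists 2 modifying enzymes then passed in knockdown cells, and 4 modifying enzymes and 4 receptors in control cells. The other counts stayed as they were. The genes added were Crtap, a partner of prolyl 3-hydroxylase, in knockdown cells (log2 fold change -0.19; limma's adjusted p = 0.0492 with the block and 0.0715 without), and Plod2, P4ha3 and Mrc2 in control cells. P4ha3, a prolyl 4-hydroxylase chain, had 0.40 in control cells (adjusted p = 0.0190 with the block and 0.0532 without), and Mrc2, an uptake receptor for collagen, had 0.29 (0.0277 and 0.0628). Between hairpins none of these genes passed limma's test; at an unadjusted p below 0.05 there were 2 modifying enzymes and 1 chaperone at day 6, and 1 modifying enzyme at day 3.

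Among processing genes, Tll1, a tolloid protease that trims procollagen C-termini, showed the largest fall. It stood at 6.45, 6.43 and 6.46 on knockdown arrays and 6.35, 6.81 and 6.54 on control arrays at day 6, against 7.80, 8.06 and 7.83 on knockdown arrays and 7.50, 8.14 and 7.78 on control arrays at day 3. Every day 6 array was below every day 3 array. Its log2 fold change was -1.45 in knockdown cells and -1.24 in control cells (limma's adjusted p = 4.14e-05 and 1.66e-04). Bmp1, the founding protease of this family, rose in control cells with a log2 fold change of 0.24 (adjusted p = 0.0132) and had 0.07 in knockdown cells.

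The enhancers of these proteases moved in opposite directions. Pcolce rose, at 10.07, 9.82 and 9.87 on knockdown arrays and between 9.96 and 10.09 on control arrays at day 6, against 9.27, 9.56 and 9.43 on knockdown arrays and 9.10, 9.34 and 9.23 on control arrays at day 3. Its log2 fold change was 0.50 in knockdown cells and 0.80 in control cells (limma's adjusted p = 0.00267 and 1.50e-04). Pcolce2 fell by 0.50 in knockdown cells and by 0.55 in control cells (adjusted p = 8.87e-04 and 5.28e-04).

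Of the crosslinking enzymes, the lysyl oxidase Loxl3 and the transglutaminase Tgm2 rose with both hairpins and Loxl4 fell. Loxl3 had log2 fold changes of 0.35 in knockdown cells and 0.47 in control cells, Tgm2 0.28 in knockdown cells and 0.30 in control cells, and Loxl4 -0.28 in knockdown cells and -0.43 in control cells. Lox, the main lysyl oxidase of fibroblasts, fell by 0.37 in knockdown cells (limma's adjusted p = 0.00886), and had -0.25 in control cells (adjusted p = 0.0652). Plod2, which hydroxylates lysines of the collagen telopeptides, fell by 0.37 in knockdown cells (adjusted p = 0.0205). It had -0.29 in control cells, where it passed only with the replicate number as a block (adjusted p = 0.0643 without and 0.0198 with it). P3h3, a prolyl 3-hydroxylase, and Ppib, the prolyl isomerase cyclophilin B, rose in control cells by log2 fold changes of 0.29 and 0.21 (adjusted p = 0.0420 and 0.0456). Serpinh1, the collagen chaperone Hsp47, had -0.05 in knockdown cells and -0.03 in control cells.

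Among the receptors, the integrin chains Itga11 and Itga1 rose with both hairpins. Itga11, a receptor for type I collagen on fibroblasts, stood at 8.53, 7.67 and 7.78 on knockdown arrays and 8.55, 8.06 and 8.01 on control arrays at day 6, against 7.16, 7.14 and 6.84 on knockdown arrays and 7.07, 7.30 and 7.08 on control arrays at day 3. Days did not overlap, and replicate 1 was the highest of each day 6 group. The fitted log2 change was 0.95 in knockdown cells and 1.06 in control cells (limma's adjusted p = 0.00647 and 0.00357). Itga1, which prefers basement membrane collagen, rose with log2 fold changes of 0.97 in knockdown cells and 0.85 in control cells (adjusted p = 0.00244 and 0.00569). Their shared beta chain, Itgb1, fell by 0.20 in knockdown cells and by 0.23 in control cells (adjusted p = 0.0437 and 0.0242).

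**Figure D5:**
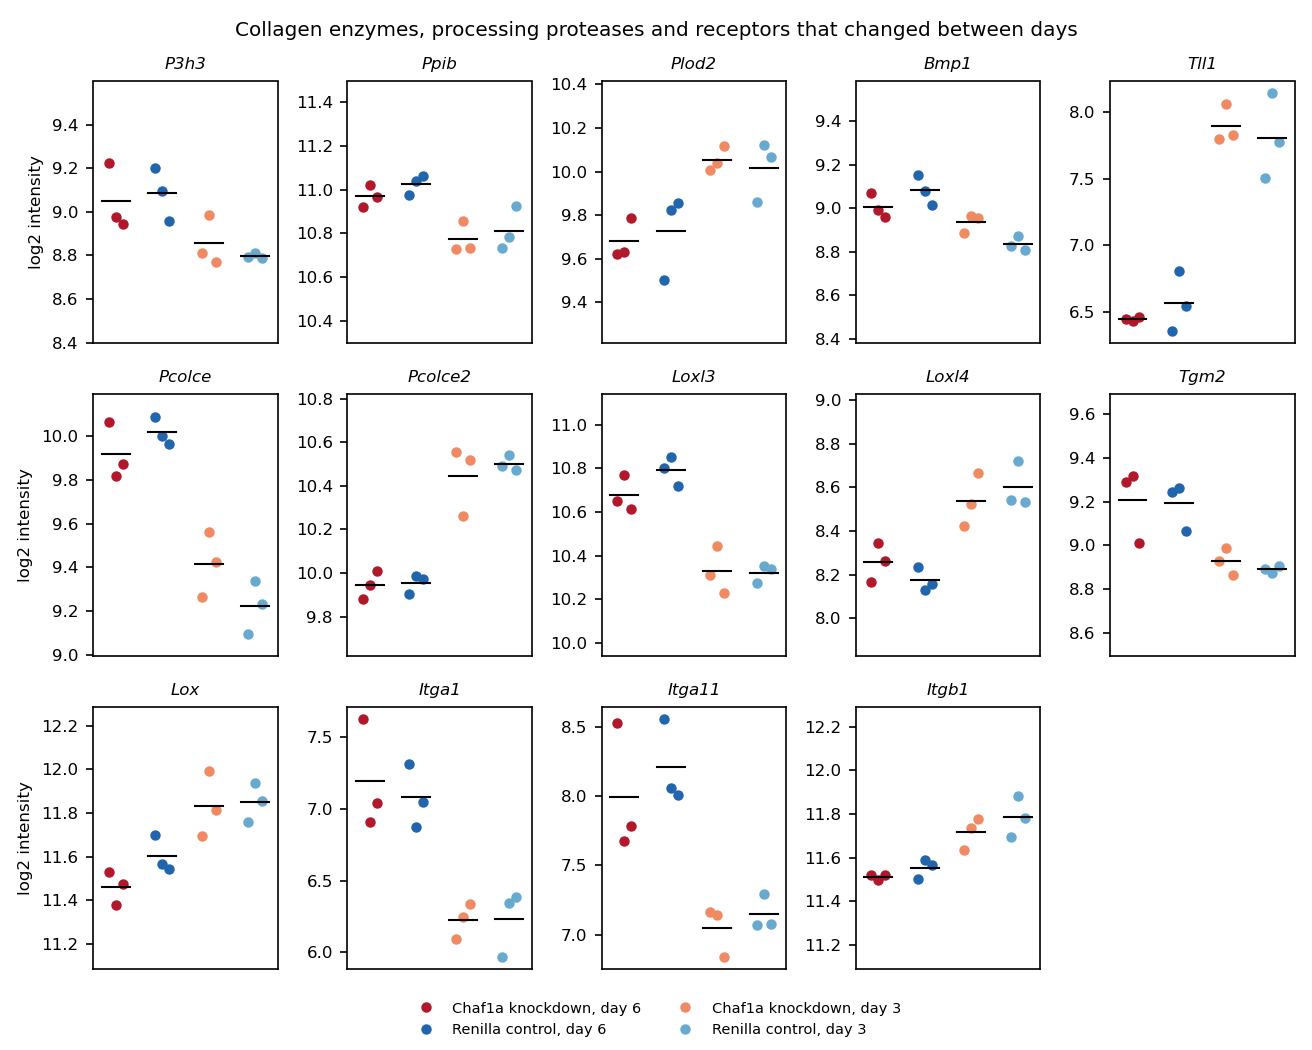
Log2 intensity on each array (points) and group mean (line) for the enzymes, processing proteins and receptors of collagen that changed between days with 1 or both hairpins; the vertical axes differ between panels. Every day 6 point of Tll1 lies below every day 3 point, and the day 6 points of Pcolce, Itga1 and Itga11 lie above those of day 3.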

How the data were processed

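RNA of 12 samples was measured on Affymetrix arrays, 3 per group. The deposited values are intensities; per the submitters' processing notes the authors made them with Affymetrix Expression Console (version 1.3.0.187) and RMA. The genome build was not given in the sources used here, nor was an annotation version. The range of the values, of 4.71 to 13421, is linear, so log2 was taken, with no further normalisation. Array medians were 39.5 to 43.3, and precision is limited by the number of arrays.

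Gene names came from the platform annotation: of 41345 probe sets, 23521 named 1 gene, 1814 several and 16010 none. Only 1-gene probe sets were used, with the highest mean standing for a gene. A second such probe set existed for 3 collagens. Genes were kept at or above their array's 30th percentile (log2 of 4.30 to 4.38) in at least 3 arrays.

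A mean per group was fitted to all 12 arrays with limma 3.58.1 in R 4.3.3 (8 residual and 4.37 prior degrees of freedom, two-sided, Benjamini-Hochberg adjustment over 17860 genes, threshold 0.05). The 5 comparisons were knockdown against control on each day, the difference between these, and day 6 against day 3 with each hairpin. Comparisons share arrays. SE is that of a fitted log2 fold change. The procedure was tested on simulated data, drawn independently for each array, with shifts put into the day 6 knockdown arrays only. Those data lack the pairing described next, so they cannot show how the fit performs under it. Groups share replicate numbers in the labels. The deviations from group means correlated in each of the 12 pairs of arrays with the same number (r = 0.137 to 0.373). The numbers thus pair the arrays. Unless said otherwise, calls, p-values and intervals in the text and figures come from the fit without the block, which leaves this pairing out. Values with the number as a block are given where a call changes.

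The members and lists were chosen with earlier results of these data known. Lists covered collagen classes, modifying enzymes, chaperones and secretion, processing, crosslinking, receptors, and fibroblast, chondrocyte, osteoblast, endothelial, epithelial and macrophage markers. Of collagens the text names Col1a1, Col2a1, those past the threshold, the 2 with the smallest p in a direction where none passed, and any with its levels; of other lists, up to 4 per direction past the threshold. Genes whose call changed with the block, and Serpinh1, Acan, Cnmd, Vim, Lum and Tek, were named after their values were seen. Alternatives were other filters, the mean of probe sets, renewed quantile normalisation, array weights, an intensity trend, only the groups compared, the replicate block and leaving out arrays. Promoter windows and gene order are RefSeq's (GRCm38.p6). Python 3.11.15, pandas 2.3.3 and matplotlib 3.10.9 made the tables and plots.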

Additional observations from a re-analysis of the deposited data

How the results depend on the processing

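Without single arrays the number of collagens changed between days was 4 to 6 in knockdown cells and 4 to 6 in control cells, against 7 of 44 in each with all arrays. It was 4 in knockdown cells without knockdown day 6 replicate 2 or knockdown day 3 replicate 1, and 4 in control cells without control day 6 replicate 1. Fewer arrays were then fitted. With the replicate number as a block the counts were 9 of 44 in knockdown cells and 8 of 44 in control cells. Of all 17860 genes, 3509 and 3367 passed with the block, against 3200 and 3140 without it. The added collagens were Col15a1 with both hairpins and Col4a2 in knockdown cells, and the block changed no other collagen call. Over the other settings the counts were 6 to 9 with each hairpin. Counts of all genes without single arrays and under the remaining settings are not given here. These ranges therefore do not set collagens apart from other genes. Knockdown against control gave 0 collagens on both days, and the difference between days 0, under all alternatives run. The difference between days of Col1a1, -0.0068, changed sign: it was 0.0072 after renewed quantile normalisation, and 0.01, 0.0843, 0.102, 0.0759 and 0.0544 with arrays left out, where it ranged from -0.115 to 0.102; the cause was not tested. Of 502 values of single collagens under alternatives, 465 kept their direction and side of the threshold, 31 lost their call and 6 changed sign. Leaving out both day 6 replicate 1 arrays was chosen after seeing the data. Of the settings, only the groups compared could not be applied to the difference between days. Low signal limits Col14a1, Col19a1, Col6a4 and Col6a5, whose levels lie near the filter, and Col28a1, whose day 3 levels do.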
